A study of Mus musculus with 12 samples.

Results

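The Tgf-beta genes described here are the ligands Tgfb1, Tgfb2 and Tgfb3, the receptors Tgfbr1, Tgfbr2 and Tgfbr3, the matrix target Tgfbi, and the latent binding proteins Ltbp1 and Ltbp2. The rule that picks them is a list of symbols and holds no measured value, though the list was drawn up with earlier results of these data known. All 9 were measured among the 22180 genes of the array, each by 1 probe set annotated with that gene alone, and no filter on low values was applied. Total RNA of whole mouse lungs, taken at E14.5 while the airways were branching, was labelled with biotin for Affymetrix arrays. There were 4 specimens of Yy1flox/flox;Shh+/Cre (Yy1 mutant), 4 of Dicerflox/flox;Shh+/Cre (Dicer mutant) and 4 of Shh+/Cre (control). All 3 genotypes carried 1 Cre allele at Shh, a gene active in the lung epithelium, and only the mutants carried floxed alleles. Whether a specimen was 1 embryo or a pool is not given, so the p-values measure the spread between these specimens. Levels are the deposited log2 values, on which a difference of 1 is a 2-fold change.

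Tgf-beta ligands are secreted in a latent complex. Integrins and matrix proteins release the ligand, which binds Tgfbr2, and Tgfbr2 activates the kinase Tgfbr1, which passes the signal to Smad2 and Smad3. In the embryonic lung the pathway acts between epithelium and mesenchyme, it restrains branching in explant cultures, and it promotes smooth muscle and matrix gene expression. Mice without Tgfb3 have delayed lung development.

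The promoter windows of 4 Tgf-beta genes that differed between genotypes are shown first, because Smad3 and Smad4 bind short sites such as CAGAC. They come from RefSeq on build GRCm38.p6, run 5′ to 3′ from 250 bases before to 50 after an annotated start, and carry CAGAC, read on either strand (CAGAC or GTCTG), in capitals. For Tgfbr1 it is the first of 2 listed starts.
Tgfbi promoter, chr13:56609336-56609635, + strand: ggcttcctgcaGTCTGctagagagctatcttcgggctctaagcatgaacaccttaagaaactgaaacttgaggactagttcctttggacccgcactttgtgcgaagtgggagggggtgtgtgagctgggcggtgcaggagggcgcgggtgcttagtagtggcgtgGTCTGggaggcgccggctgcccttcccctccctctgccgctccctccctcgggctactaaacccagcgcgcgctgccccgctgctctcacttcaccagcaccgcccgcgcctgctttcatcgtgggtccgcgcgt
Ltbp2 promoter, chr12:84876442-84876741, - strand: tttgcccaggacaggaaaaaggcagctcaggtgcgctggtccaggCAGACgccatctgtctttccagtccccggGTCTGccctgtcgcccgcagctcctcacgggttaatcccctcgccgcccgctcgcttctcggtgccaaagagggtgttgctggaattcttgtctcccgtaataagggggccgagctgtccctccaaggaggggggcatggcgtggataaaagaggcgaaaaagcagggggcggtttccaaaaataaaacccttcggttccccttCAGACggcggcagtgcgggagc
Tgfbr2 promoter, chr9:116175314-116175613, - strand: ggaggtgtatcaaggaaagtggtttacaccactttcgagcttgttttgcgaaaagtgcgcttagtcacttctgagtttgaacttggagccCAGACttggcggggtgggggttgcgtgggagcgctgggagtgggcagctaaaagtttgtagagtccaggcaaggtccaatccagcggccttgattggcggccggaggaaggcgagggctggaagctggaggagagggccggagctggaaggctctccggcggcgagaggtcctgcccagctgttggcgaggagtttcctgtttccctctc
Tgfbr1 promoter, chr4:47352972-47353271, + strand: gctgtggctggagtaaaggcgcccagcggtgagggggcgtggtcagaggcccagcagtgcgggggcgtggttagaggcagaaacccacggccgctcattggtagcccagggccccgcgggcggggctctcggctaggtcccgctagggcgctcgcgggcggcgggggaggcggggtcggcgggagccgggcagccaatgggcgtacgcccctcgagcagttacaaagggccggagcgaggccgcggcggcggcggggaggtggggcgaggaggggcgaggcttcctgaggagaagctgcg
Windows were listed for 7 of the 9 genes and held 9 starts in all. Tgfb3 and Tgfbr3, which also differed between genotypes, had no listed window. CAGAC was found 2 times in the Tgfbi window, 3 times in that of Ltbp2, 1 time in that of Tgfbr2 and 0 times in the Tgfbr1 window shown, and 49.6% of all 32851 windows held it. Among the windows not shown, CAGAC occurred 2 times in that of Tgfb2 and 0 times in that of Tgfb1. It occurred 1 time in the first Ltbp1 window, 2 times in the second, and 1 time in the second Tgfbr1 window. The GC box GGGCGG, read on both strands, occurred 2 times each in the Tgfbi, Ltbp2 and shown Tgfbr1 windows and 0 times in that of Tgfbr2, against 35.7% of all windows with at least 1. The letters CCATNTT, a short form of the Yy1 motif read on both strands, were in 0 of the 9 windows and in 16.1% of all windows. No 2 of these motifs overlapped in any of the 9 windows. A match of letters is not evidence of binding.

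The floxed genes were checked first. Dicer1 read 8.03, 8.27, 8.26 and 8.22 in the 4 Dicer mutants, against 9.02, 8.85, 8.73 and 8.63 in controls, a fall of 0.61 on the log2 scale (SE 0.0953, limma adjusted p = 0.00127). Yy1 averaged 8.84 ± 0.104 in Yy1 mutants and 9.03 ± 0.0710 in controls (SD, n = 4 each), and the difference of -0.19 did not pass the test (limma adjusted p = 0.125). Its levels, 8.70 to 8.95 in Yy1 mutants and 8.98 to 9.14 in controls, did not overlap. In that comparison 12.6% of all genes did not overlap, in either direction. The lung label was checked against its markers. All 8 epithelial and all 8 mesenchymal markers, Nkx2-1, Sftpc, Tbx4 and Foxf1 among them, lay above the median gene of the array, while 5 of 7 cartilage, 3 of 4 liver and all 3 measured neural markers lay below it. Of the muscle lists, 5 of 6 heart and 3 of 5 skeletal muscle markers lay above it. The mean level of the heart list spread widely among mutant arrays, at 6.54 to 7.82 in Yy1 mutants and 6.45 to 8.35 in Dicer mutants, against 6.96 to 7.16 in controls, and its part in the levels of the Tgf-beta genes was not tested. Eif2s3y, Kdm5d and Uty, which lie on the Y chromosome, averaged 8.04 in Yy1 mutant 2, 5.25 in Yy1 mutant 3 and 7.94 in Dicer mutant 4, over 1 log2 unit above every control. These are called the 3 Y-high arrays, and the counts of Tgf-beta genes are also given without them. They were not alike in the X-linked RNA Xist. It read 8.55 in Yy1 mutant 2 and 9.64 in Dicer mutant 4, but 11.11 in Yy1 mutant 3, beside 11.15 to 11.31 in controls. Array medians ran from 5.99 to 6.08.

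Of the ligands, Tgfb3 was lower in both mutants, while Tgfb1 and Tgfb2 did not pass the test in any comparison. Tgfb3 read 8.89, 8.73, 8.77 and 8.49 in Yy1 mutants 1 to 4, 8.59, 8.71, 8.83 and 8.74 in Dicer mutants 1 to 4, and 9.25, 9.18, 9.10 and 8.99 in controls 1 to 4. All 8 mutant arrays lay below all 4 controls, and the mutants overlapped each other. The fall was 0.41 in Yy1 mutants (SE 0.0908, a 1.33-fold decrease, limma adjusted p = 0.0148). In Dicer mutants it was also 0.41 (SE 0.0908, limma adjusted p = 0.0116). The mutants are set against the same controls, so the likeness of these values is not independent. Between the mutants Tgfb3 differed by 0.005 (95% interval -0.19 to 0.20). Without the 3 Y-high arrays the differences were -0.44 in Yy1 and -0.42 in Dicer mutants, with limma adjusted p = 0.111 and 0.0649, so neither passed the test.

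Tgfb1, a ligand known best for its part in the immune system and vessels, read 9.11, 9.15, 9.10 and 9.01 in Yy1 mutants, 9.14, 9.12, 9.16 and 9.15 in Dicer mutants, and 9.43, 9.15, 9.16 and 8.99 in controls. The groups overlapped, and control 1 was the highest of the 12 arrays. The difference was -0.09 in Yy1 mutants (95% interval -0.27 to 0.08, limma adjusted p = 0.616) and -0.04 in Dicer mutants (-0.22 to 0.14, adjusted p = 0.831).

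Tgfb2, a ligand that depends on Tgfbr3 for efficient receptor binding, read 9.52, 9.40, 9.44 and 9.39 in Yy1 mutants and 9.72, 9.58, 9.77 and 9.64 in Dicer mutants, with 9.64, 9.61, 9.44 and 9.50 in controls. Both mutant groups overlapped the controls, but every Yy1 mutant lay below every Dicer mutant. Yy1 mutants differed from controls by -0.11 (limma adjusted p = 0.445) and Dicer mutants by 0.13 (adjusted p = 0.297). The direct difference, Yy1 minus Dicer mutant, was -0.24 (95% interval -0.38 to -0.09, limma adjusted p = 0.0705).

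**Figure D1:**
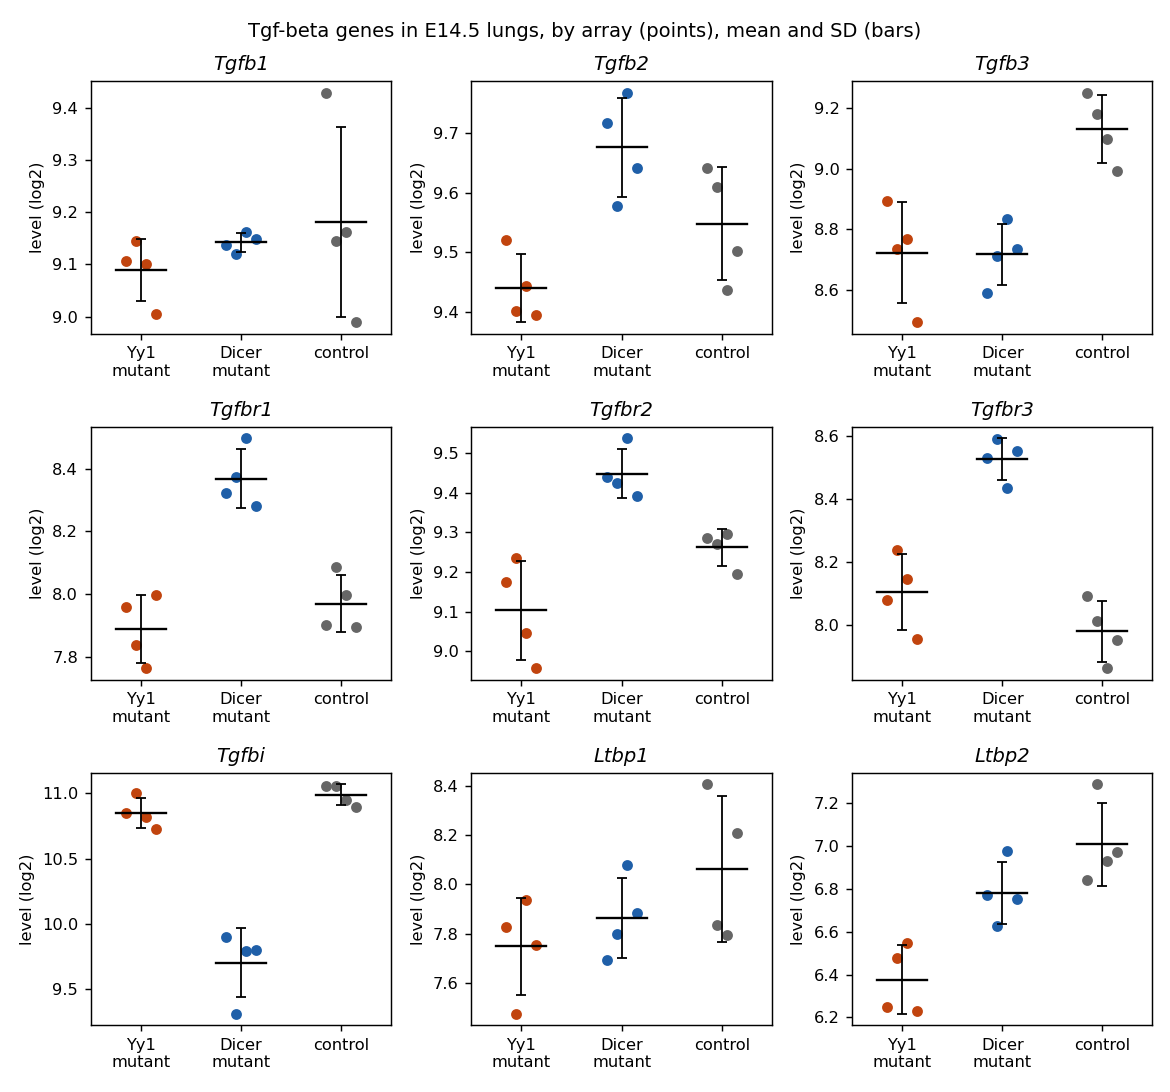
Deposited log2 level of the 9 Tgf-beta genes on each of the 12 arrays (points), with the mean and SD of each genotype (n = 4, black bars), each panel on its own axis. Tgfb3 lay below all controls in both mutants, the 3 receptors lay highest in Dicer mutants, and Tgfbi stood between 9.31 and 9.90 in Dicer mutants, against 10.89 to 11.06 in controls.

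The receptors went with genotype differently. In Dicer mutants Tgfbr1 and Tgfbr3 rose, by 0.40 and 0.55, and in Yy1 mutants no receptor passed the test against controls. Tgfbr1, the type I receptor kinase, read 7.96, 7.84, 7.76 and 7.997 in Yy1 mutants, 8.32, 8.37, 8.50 and 8.28 in Dicer mutants, and 7.90, 8.09, 7.995 and 7.89 in controls. All Dicer mutants lay above all other arrays, and Yy1 mutants and controls overlapped. Its rise in Dicer mutants was 1.32-fold (SE of the log2 difference 0.0760, limma adjusted p = 0.00488). Yy1 mutants differed from controls by -0.08 (95% interval -0.24 to 0.08), and by 0.009 without the 3 Y-high arrays.

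Tgfbr2, the type II receptor that binds the ligand, read 9.18, 9.23, 9.05 and 8.96 in Yy1 mutants, 9.44, 9.43, 9.54 and 9.39 in Dicer mutants, and 9.29, 9.27, 9.29 and 9.19 in controls. The Dicer mutants lay above every control, but the difference of 0.19 did not pass the test (SE 0.0706, limma adjusted p = 0.128). In Yy1 mutants the difference was -0.16 (adjusted p = 0.239), and the groups overlapped. Against each other the mutants did not overlap, and Tgfbr2 was lower in Yy1 than in Dicer mutants by 0.35 on the log2 scale (SE 0.0706, limma adjusted p = 0.0108).

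Tgfbr3, or betaglycan, a coreceptor without kinase activity that presents ligand to Tgfbr2, read 8.08, 8.24, 8.15 and 7.95 in Yy1 mutants, 8.53, 8.59, 8.43 and 8.55 in Dicer mutants, and 8.09, 8.01, 7.86 and 7.95 in controls. Dicer mutants stood above all other arrays with no overlap. The rise over controls was 1.46-fold (log2 difference 0.55, SE 0.0754, limma adjusted p = 0.000529). Yy1 mutants differed from controls by 0.12 (95% interval -0.04 to 0.29, limma adjusted p = 0.418).

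Endothelial markers, like Tgfbr1 and Tgfbr3, were higher in Dicer mutants. All 7 on the list, Pecam1, Cdh5, Kdr, Tek, Tie1, Emcn and Cldn5, rose in Dicer mutants, where 4.78% of all genes rose, and 1 of 7 (Cldn5, by 0.29) rose in Yy1 mutants. The mean log2 level of the list ran from 9.50 to 9.74 in Yy1 mutants, from 9.90 to 10.00 in Dicer mutants and from 9.38 to 9.67 in controls. Of the macrophage and leukocyte markers, 6 of 9 rose in Yy1 mutants, where 2.77% of all genes rose, and 7 of 9 rose in Dicer mutants. Their mean level was 7.40 to 7.57 in Yy1 mutants and 7.55 to 7.73 in Dicer mutants, against 6.96 to 7.12 in controls. The part of either list in the receptor levels was not tested. In whole lungs, more or fewer cells of a type and more or less RNA per cell cannot be told apart.

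Tgfbi had the largest difference of the 9 genes. It encodes a secreted protein that binds collagens and integrins and is named for its induction by Tgf-beta. Its levels were 10.85, 11.01, 10.82 and 10.73 in Yy1 mutants, 9.90, 9.31, 9.80 and 9.80 in Dicer mutants, and 11.06, 11.06, 10.95 and 10.89 in controls. Every Dicer mutant lay below every other array by more than the whole range of any genotype. The fall in Dicer mutants was 2.44-fold (log2 difference -1.29, SE 0.112, limma adjusted p = 1.42e-05). It passed the test in all 23 alternatives, with log2 differences between -1.35 and -1.16. Yy1 mutants differed from controls by -0.14 (95% interval -0.38 to 0.10, adjusted p = 0.575), with overlapping groups.

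Ltbp2, a matrix protein that binds fibrillin and, unlike Ltbp1, is not known to hold the latent ligand, was lower in Yy1 mutants. It read 6.25, 6.48, 6.55 and 6.23 in Yy1 mutants, 6.77, 6.63, 6.98 and 6.75 in Dicer mutants, and 6.84, 7.29, 6.93 and 6.97 in controls. The Yy1 mutants lay below all other arrays, while Dicer mutants and controls overlapped. The fall in Yy1 mutants was 1.55-fold (log2 difference -0.63, SE 0.110, limma adjusted p = 0.00311), and the call remained without the 3 Y-high arrays. Dicer mutants differed from controls by -0.23 (95% interval -0.46 to 0.01, adjusted p = 0.245). A further probe set is annotated with Ltbp2 together with another gene and was not used. That probe set read 5.38, 5.35, 5.47 and 5.08 in Yy1 mutants and 5.70, 5.18, 5.39 and 5.28 in Dicer mutants. In controls it read 5.84, 5.46, 5.57 and 5.78, and on it all 3 groups overlapped.

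Ltbp1, which fastens the latent ligand to the matrix, was the most variable of the set in controls. It read 7.83, 7.47, 7.93 and 7.75 in Yy1 mutants, 7.69, 7.80, 8.08 and 7.88 in Dicer mutants, and 8.41, 7.83, 7.79 and 8.21 in controls, whose SD was 0.296. All 3 groups overlapped. The difference was -0.31 in Yy1 mutants (95% interval -0.62 to -0.01, limma adjusted p = 0.239) and -0.20 in Dicer mutants (-0.50 to 0.10, adjusted p = 0.453).

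Beside the falls of Tgfb3 and Ltbp2, most markers of smooth muscle and lung epithelium were lower. Of the smooth muscle markers, 6 of 8 fell in Yy1 and 7 of 8 in Dicer mutants, beside 3.84% and 3.97% of all genes. Des did not pass the test in either mutant (-0.19 and -0.18), nor Lmod1 in Yy1 mutants (-0.41). The list had a mean log2 level of 7.62 to 8.13 in Yy1 mutants, 7.65 to 8.26 in Dicer mutants and 9.01 to 9.25 in controls. Of the epithelial markers, 6 of 8 fell in Yy1 mutants and 5 of 8 in Dicer mutants. Krt8 and Krt18 did not pass the test in Yy1 mutants (-0.23 and -0.03), nor Cdh1 in Dicer mutants (-0.32). Epcam (0.11) and Sox9 (0.225) lay above every control in Dicer mutants, though neither was called. The mean level of the epithelial list was 8.51 to 8.80 in Yy1 mutants and 8.97 to 9.20 in Dicer mutants, against 9.33 to 9.55 in controls. Of 8 mesenchymal markers, 4 rose in each mutant, beside 2.77% and 4.78% of all genes. Fgf10, Col1a1 and Dcn rose in both, Pdgfra in Yy1 and Col1a2 in Dicer mutants. The Col1a1 call in Yy1 mutants (log2 difference 0.263, limma adjusted p = 0.0356) was lost in 9 of the 12 fits without 1 array. It was also lost without the 3 Y-high arrays (limma adjusted p = 0.256). The rest did not pass the test, with Foxf1 at -0.09 in Yy1 mutants and Tbx5 at -0.14 in Dicer mutants. Mesothelial markers went both ways. In Yy1 mutants 2 of 6 were called, Lrrn4 higher by 0.57 and Krt19 lower by 0.57 on the log2 scale, and in Dicer mutants 3 of 6, Lrrn4 and Upk3b higher by 0.58 and 0.42 and Krt19 lower by 0.76. The mean level of that list was 7.31 to 7.42 in Yy1 mutants, 7.37 to 7.46 in Dicer mutants and 7.30 to 7.41 in controls. The part of these lists in the levels of Tgfb3, Tgfbi and Ltbp2 was not tested.

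**Figure D2:**
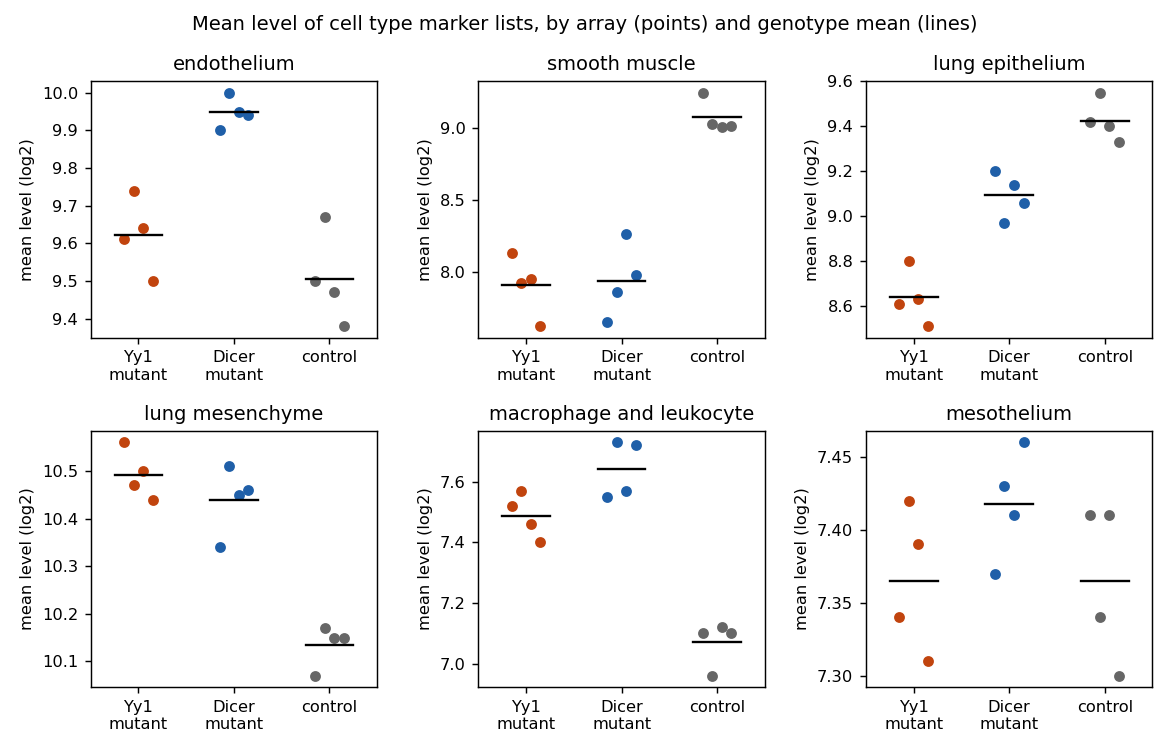
Mean log2 level of 6 lists of cell type markers on each array (points), with the mean of each genotype (lines). The mean of the endothelial list ran from 9.90 to 10.00 in Dicer mutants, against 9.38 to 9.67 in controls. The mean of the smooth muscle list was below all controls in both mutants.

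Counted over the set, 2 of the 9 genes were called in Yy1 mutants against controls, both lower (Tgfb3 and Ltbp2), where 6.61% of all genes were called, 2.77% higher and 3.84% lower. The median difference of the 9 was -0.14, beside 0.002 for all genes. In Dicer mutants 4 of 9 were called, 2 higher (Tgfbr1 and Tgfbr3) and 2 lower (Tgfb3 and Tgfbi), where 8.75% of all genes were called, 4.78% higher and 3.97% lower. Here the median difference was -0.04, beside -0.028 for all genes. Groups did not overlap for 2 of 9 in Yy1 mutants and 5 of 9 in Dicer mutants, beside 12.6% and 16% of all genes. Of 9 genes, a count of 2 is a small number to set against a share of all genes. Without the 3 Y-high arrays the counts were 1 (Ltbp2) in Yy1 mutants and 3 (Tgfbr1, Tgfbr3 and Tgfbi) in Dicer mutants.

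Set directly against each other, the mutants differed past the test in the 3 receptors and Tgfbi. All 3 receptors were lower in Yy1 than in Dicer mutants, Tgfbr1 by 0.48, Tgfbr3 by 0.42 and Tgfbr2 by 0.35, with limma adjusted p = 0.00201, 0.00455 and 0.0108. Tgfbi was higher in Yy1 mutants, 2.22-fold (log2 difference 1.15, SE 0.112, limma adjusted p = 5.92e-05). Ltbp2 was at 6.38 ± 0.160 in Yy1 mutants and 6.78 ± 0.145 in Dicer mutants (SD, n = 4 each), and its difference of -0.41 did not pass the test (limma adjusted p = 0.0514), though it did in 7 of 23 alternatives, among them the fit without control 2 (adjusted p = 0.0238). In all, 4 of 9 were called, 1 higher and 3 lower in Yy1 mutants, where 4.96% of all genes were called, 1.57% higher and 3.39% lower. For 6 of the 9 the groups did not overlap, beside 13.8% of all genes. Without the 3 Y-high arrays, Tgfbr3 and Tgfbi kept their calls and Tgfbr1 (adjusted p = 0.0585) and Tgfbr2 (0.0636) did not. These 3 arrays are all mutants, and that fit rests on 2 Yy1 mutants and 3 Dicer mutants.

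**Figure D3:**
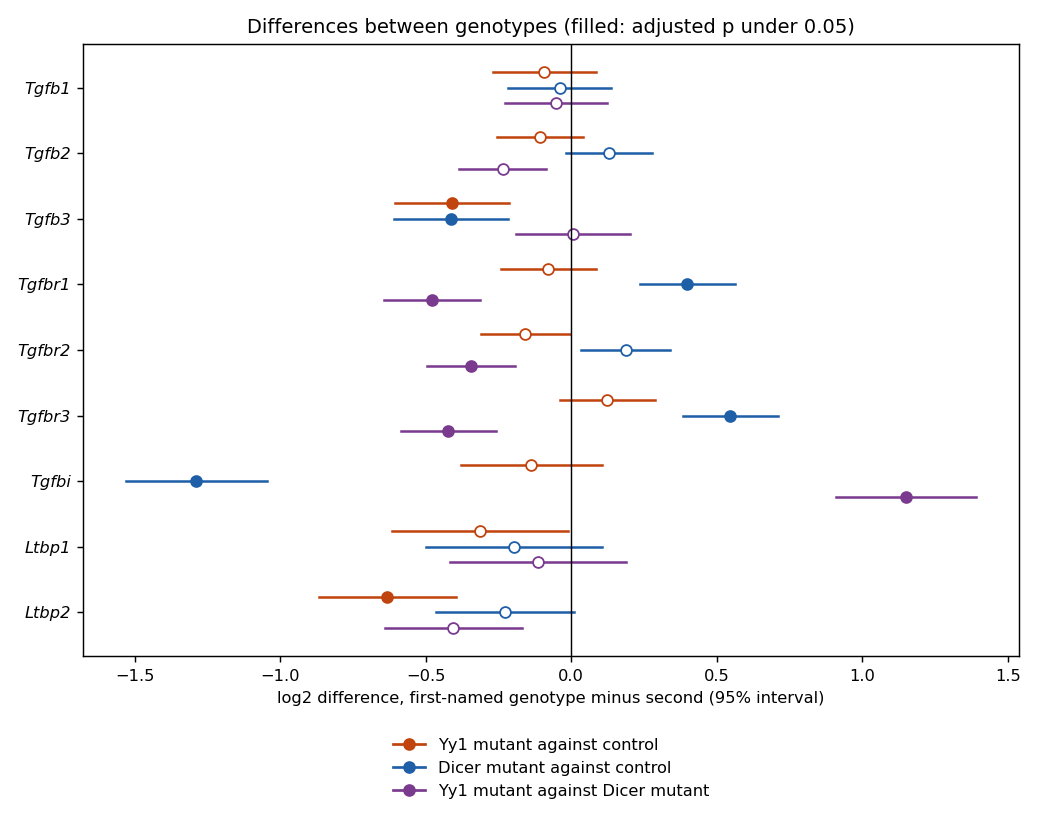
Log2 difference of each Tgf-beta gene in the 3 comparisons (points, filled where the adjusted p was under 0.05) with its 95% interval (lines). Tgfb3 was below 0 in both mutants against controls, the receptors were to the right of 0 in Dicer mutants and to the left of 0 in Yy1 against Dicer mutants, and Tgfbi stood at -1.29 in Dicer mutants.

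In order of level, Tgfb3 stood at 8.72 in both mutants and at 9.13 in controls. For Tgfbr1 the order was Dicer mutant (8.37), control (7.97) and Yy1 mutant (7.89), and for Tgfbr3 Dicer mutant (8.53), Yy1 mutant (8.10) and control (7.98). In each case the difference between the lower 2 did not pass the test. Tgfbr2 ran from Dicer mutant (9.45) through control (9.26) to Yy1 mutant (9.10), where only the ends passed the test. From low to high, Tgfbi ran from Dicer mutant (9.70) to Yy1 mutant (10.85) and control (10.99), and the last 2 did not pass the test against each other. Ltbp2 ran from Yy1 mutant (6.38) through Dicer mutant (6.78) to control (7.01), and neighbours in that order did not pass the test.

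The other genes of the pathway were counted from 4 lists with 56 of 58 genes measured. In Yy1 mutants 6 rose and 8 fell, and in Dicer mutants 10 rose and 7 fell, so 25% and 30.4% of the 56 were called, beside 6.61% and 8.75% of all genes. The median differences were 0.02 and 0.05, beside 0.002 and -0.028 for all genes. Without Yy1 mutant 3 the first count was 9, and without Dicer mutant 2 the second was 11. Without the 3 Y-high arrays they were 7 and 10. Between the mutants 5 of 56 were called (8.93%, beside 4.96% of all genes), Vcan higher in Yy1 mutants and Acvr2b, Itgb6, Thbs1 and Acvr1b lower, and 2 of these calls (Acvr2b and Vcan) held in all 12 fits without 1 array. That count was 2 without Yy1 mutants 1, 3 or 4 or Dicer mutants 1 or 3, and 3 without Dicer mutant 4. The lists share Col1a1, Col1a2, Acta2, Tagln and Cnn1 with the marker lists above.

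Of 11 measured genes of latency and activation, 3 rose and 3 fell in Yy1 mutants, and 3 rose and 1 fell in Dicer mutants. Itgb8, the integrin chain that pairs with Itgav and frees latent Tgfb1 and Tgfb3, rose by 0.93 in Yy1 mutants (SE 0.107, limma adjusted p = 0.000147) and by 0.92 in Dicer mutants (adjusted p = 0.000128). It averaged 8.16 in each mutant and 7.23 in controls. Its partner Itgav rose by 0.27 in Yy1 mutants (limma adjusted p = 0.0193, 0.0508 without control 4, 0.0647 without Yy1 mutant 3 and 0.197 without the 3 Y-high arrays) and by 0.42 in Dicer mutants. With the mean of all its probe sets, both Itgav calls were lost, with differences of 0.083 in Yy1 mutants (limma adjusted p = 0.63) and 0.156 in Dicer mutants (adjusted p = 0.249). Itgb6, the epithelial chain with the same partner and activity, fell by 0.70 in Yy1 mutants (limma adjusted p = 0.00862), and in Dicer mutants it differed by -0.12 and was not called. It was dim, with means of 5.34 in Yy1 mutants, 5.92 in Dicer mutants and 6.04 in controls, beside array medians of 5.99 to 6.08. Its SD was 0.366 in Dicer mutants and 0.0591 in controls. Yy1 mutants were lower than Dicer mutants in Itgb6 by 0.58 (limma adjusted p = 0.0333), a call lost without Yy1 mutants 1 (0.084), 3 (0.0591) or 4 (0.104) without Dicer mutants 1 (0.0766) or 3 (0.0522), and without the 3 Y-high arrays (0.0816).

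Thbs1, a matrix protein that activates latent ligand, fell by 0.45 in Yy1 mutants (limma adjusted p = 0.00798) and differed by -0.09 in Dicer mutants. Fbn2, a fibrillin of the matrix to which latent complexes attach, fell by 0.35 in Yy1 mutants and by 0.39 in Dicer mutants. Without the 3 Y-high arrays, Fbn2 and Thbs1 lost their calls in Yy1 mutants (adjusted p = 0.109 and 0.0688). Nrros, which tethers latent Tgfb1 on macrophages and microglia, rose by 0.47 in Dicer mutants (limma adjusted p = 0.00074) and by 0.26 in Yy1 mutants, where the call was lost in 6 of the 12 fits without 1 array and without the Y-high arrays (0.0956). It moved with the macrophage markers given above, whose part was not tested. The related binding proteins Ltbp3 and Ltbp4 differed by 0.01 and -0.01 in Yy1 mutants and by -0.14 and -0.05 in Dicer mutants, and none of these passed the test.

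Among 9 receptor partners, Bambi, a decoy receptor that damps the signal, rose in both mutants, by 0.38 in Yy1 (limma adjusted p = 0.00812) and 0.37 in Dicer mutants (adjusted p = 0.00797). Cd109, a coreceptor that lowers signalling, rose by 0.35 in Dicer mutants (limma adjusted p = 0.0151, and 0.0707 without the 3 Y-high arrays). The activin receptor Acvr2b was lower in Yy1 than in Dicer mutants by 0.52 (limma adjusted p = 0.00245), and it was not called against controls in either mutant. Of 14 Smads and their regulators, 1 was called in each mutant (7.14%, beside 6.61% and 8.75% of all genes). This was Pmepa1, a Tgf-beta target that restrains Smad signalling, which fell by 0.34 in Yy1 mutants (limma adjusted p = 0.0127) and by 0.31 in Dicer mutants (adjusted p = 0.0185). The Dicer call was lost without controls 1 or 3 or Dicer mutants 2 or 4, with adjusted p from 0.0525 to 0.064, and without the 3 Y-high arrays (0.0839). The signal carriers Smad2, Smad3 and Smad4 did not pass the test in either mutant, with differences from -0.03 to 0.16.

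Matrix and other targets went both ways. Of 22 measured, 2 rose and 4 fell in Yy1 mutants, and 5 rose and 5 fell in Dicer mutants. In Dicer mutants Fn1 (0.21), Timp3 (0.43) and Col3a1 (0.35) rose, and Acta2 (-0.34) and Vcan (-0.29) fell. These calls were lost in 10, 5, 4, 6 and 5 of the 12 fits without 1 array, in that order. Of these, only the Timp3 call held without the 3 Y-high arrays (limma adjusted p = 0.0424). Cnn1, the smooth muscle calponin, fell by 1.99 in Yy1 mutants and fell by 2.02 in Dicer mutants. Tagln, an actin-binding protein of the same cells, fell by 0.91 in Yy1 mutants and fell by 0.62 in Dicer mutants. Tnc, the matrix glycoprotein tenascin C, fell by 1.28 in Dicer mutants (limma adjusted p = 0.00141) and by 0.78 in Yy1 mutants (adjusted p = 0.0339, lost in 7 of the 12 fits without 1 array and, at 0.102, without the 3 Y-high arrays). The fibrillar collagen gene Col1a1 rose by 0.40 in Dicer mutants (limma adjusted p = 0.00227) and Col1a2 by 0.40 (adjusted p = 0.0086, 0.0571 without the 3 Y-high arrays and 0.0543 with the mean of all probe sets). Fibronectin, Fn1, rose by 0.35 in Yy1 mutants (limma adjusted p = 0.0033, and 0.0837 without those arrays). Acta2, the smooth muscle actin, fell by 0.38 in Yy1 mutants (limma adjusted p = 0.0182, lost when control 2 (0.0502), Yy1 mutant 3 (0.0569) or Yy1 mutant 4 (0.0521) was left out). Cnn1, Tagln and Acta2 are on the smooth muscle list too, and Col1a1 and Col1a2 are on the mesenchymal list. Vcan, the proteoglycan versican, was higher in Yy1 than in Dicer mutants by 0.39 (limma adjusted p = 0.00815, and 0.0537 without the 3 Y-high arrays).

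**Figure D4:**
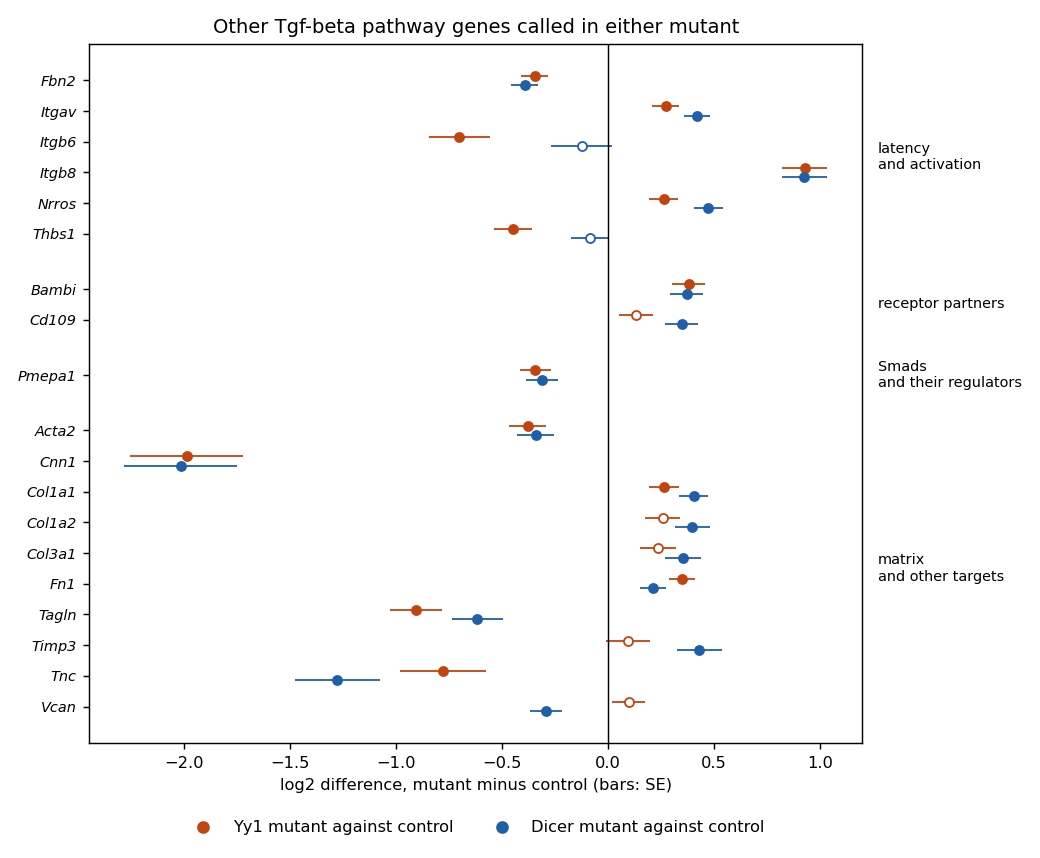
Log2 difference between mutant and control (points, filled where the adjusted p was under 0.05) with its SE (bars) for the pathway genes outside the set that were called in at least 1 mutant, grouped by list. Itgb8 rose by 0.93 in Yy1 and 0.92 in Dicer mutants, and Cnn1 had the largest fall in both.

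The genes whose levels over the 12 arrays were most like each called member were ranked by Pearson correlation, as a description. Genes with only a predicted, Riken clone or accession-style name were left out of the ranking. So were the sex-linked genes Eif2s3y, Kdm5d, Uty, Ddx3y and Xist. The points are the 3 genotypes of 4 arrays each, so differences between genotypes enter it, and the correlation of deviations from genotype means is given beside it. Tgfb3 was most like Pfn2 (0.976, and 0.93 within genotypes), then Acaca (0.952, and 0.83) and the smooth muscle gene Cnn1 (0.952, and 0.80 within genotypes). Tgfbr3 was most like Cdh5, the endothelial cadherin (0.979, and 0.82 within genotypes), followed by Adgrl4 (0.977, and 0.79) and Cebpa (0.971, and 0.78). Tgfbr2 was most like Gca (0.980, and 0.90 within genotypes), Slc48a1 (0.971, and 0.93) and App (0.971, and 0.87). For Tgfbr1 these genes were Ralgapa1 (0.959, and 0.83 within genotypes), Fermt1 (0.954, and 0.74) and Ifi30 (0.954, and 0.61). For Tgfbi they were Atp8a1 (0.968, and 0.45 within genotypes), Itga9 (0.961, and 0.61) and Fat1 (0.956, and 0.70). Ltbp2 was most like Plekhb1 (0.963, and 0.91 within genotypes), the epithelial cadherin gene Cdh1 (0.950, and 0.77) and Irx1 (0.948, and 0.82).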

How the data were processed

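The authors deposited log2 values for 41345 probe sets on 12 arrays. The labels' protocols give Trizol extraction, DNase treatment and Affymetrix labelling, and how the values were summarised and normalised is not given in the sources used here. Base 2 is inferred from the values, which run from 1.10 to 13.6. Of the probe sets, 23521 had exactly 1 gene symbol in the platform annotation, 1814 had several and 16010 had no listed gene. The probe set with the highest mean stood for its gene, which left 22180 genes. The number of arrays limits the precision.

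All 3 genotypes were fitted in one model with limma 3.58.1 in R 4.3.3 (9 residual degrees of freedom, empirical Bayes, two-sided). The call was an adjusted p under 0.05 (Benjamini-Hochberg, all 22180 genes together), and the fit was tested on simulated data. The alternatives were 23 other settings. Tables and plots used Python 3.11.15, pandas 2.3.3 and matplotlib 3.10.9. The members and lists were chosen with earlier results of these data known. Named genes are the members, floxed genes, sex-linked genes, called pathway genes, markers, and the 3 most similar genes of each called member. Smad2, Smad3, Smad4, Ltbp3 and Ltbp4 are named too, though they were not called. Lists were counted and not tested.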

Additional observations from a re-analysis of the deposited data

How the results depend on the processing

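Each of 27 results (9 genes in 3 comparisons) was recomputed in 23 alternatives, and of 621 values 591 kept direction and call, 13 lost the call, 10 gained one and 7 changed sign. The kept values include results that were called in neither fit. Some alternatives leave a member's difference unchanged by construction. These are the mean of all probe sets, the fits without an array of the genotype not compared, and the fit of only the groups compared. The fit without the dimmest genes, the intensity trend, the minimum change of 1.5-fold and the replicate block also leave it unchanged. In these alternatives the direction could not change, only the call. None of the sign changes was in a called result. They were Tgfbr1 in Yy1 mutants without the Y-high arrays (0.009), Tgfb1 in Dicer mutants without control 1 (0.043), and Tgfb3 between the mutants with equal medians (-0.008), without the Y-high arrays (-0.019), and without Yy1 mutant 1 (-0.052), Yy1 mutant 3 (-0.011) or Dicer mutant 1 (-0.038). With 1 array left out, Tgfb1 in Dicer mutants ran from -0.104 to 0.043 and Tgfb3 between the mutants from -0.052 to 0.082. Leaving out any 1 array lost no call of the 9 genes. Their counts stayed at 2 in Yy1 and 4 in Dicer mutants and ran from 4 to 5 between the mutants. Over all genes, the calls ran from 1020 to 1455 in Yy1 mutants, from 1275 (without Dicer mutant 4) to 1991 in Dicer mutants, and from 726 (without Dicer mutant 4) to 1180 between the mutants. For the other pathway genes they ran from 9 to 14, from 11 to 18 and from 2 to 5. With a minimum change of 1.5-fold, a stricter test by construction, the calls fell to 55, 60 and 33 genes, 0, 1 (Tgfbi) and 0 members, and 1, 1 and 0 other pathway genes. Without the 3 Y-high arrays, which leaves fewer samples, 606, 976 and 435 genes were called, with 1 and 2 members in Yy1 mutants and between the mutants, and 7, 10 and 1 other pathway genes. With Xist minus Eif2s3y as a covariate on all 12 arrays, 1119, 1613 and 1004 genes were called. That fit called 2, 4 and 4 members and 12, 16 and 4 other pathway genes. Array weights gave 1806 genes and 8 other pathway genes between the mutants, and a fit of only the groups compared gave 3 such pathway genes, and the cause was not tested. Tgfb2 between the mutants passed the test without the dimmest genes (0.0369), with an intensity trend (0.0207) and with array weights (0.0434). The replicate numbers mark no shared litter or day in the labels. Of 12 pairs with the same number 3 correlated above 0.1, as did 3 of 36 other pairs. With the number as a replicate block, 1301, 1848 and 997 genes and 2, 4 and 4 members were called. Refits with other probe sets of a member were not run, because each has 1 probe set of its own. Signal over background is not known for these values, so no floor can be given for dim genes.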
